A study of Mus musculus with 2 samples.

Results

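Cells destroy superoxide, hydrogen peroxide and lipid peroxides with a small set of enzymes, and 10 mouse genes of that set were followed here in fibroblasts with and without p65. The genes were Sod1, Sod2, Sod3, Cat, Gpx1, Gpx3, Gpx4, Gclc, Gclm and Hmox1. They were taken by symbol from the 16881 RefSeq transcripts of the deposited table, and all 10 were found. Of these, 9 passed the expression minimum, a mean of at least 1 CPM (fragments scaled to a common library size) over both libraries, as did 12135 transcripts in all. Gpx3 did not pass.

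The libraries came from immortalised mouse embryonic fibroblasts of the C57BL/6 strain, 1 from p65+/+ cells and 1 from p65-/- cells, with no stimulus named in the labels. p65, encoded by Rela, is the main transactivating subunit of the transcription factor NF-kB, and the design asks which genes differ when it is missing. Each genotype had 1 library of total RNA, of 20794476 (wild-type) and 15441394 (p65-null) fragments. No difference therefore has a replicate check, no p-value is given, and each 95% interval covers counting error in these 2 libraries only. Fewer cells expressing a gene and less RNA per cell cannot be told apart in such bulk samples.

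Superoxide dismutases turn superoxide into hydrogen peroxide, which catalase and the peroxidases then remove. Glutathione peroxidases spend glutathione in doing so, and glutathione is built in a first, rate-limiting step by glutamate-cysteine ligase. Haem oxygenase opens the haem ring, releasing iron, carbon monoxide and biliverdin. Many of these genes answer to NRF2, the transcription factor that KEAP1 holds down until oxidants arrive, and Sod2 is a well-known NF-kB target.

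Rela checked the labels: it had 1918 fragments in wild-type and 198.5 in p65-null cells, 6.90-fold lower (5.96 to 8.03). The cultures differed in more than Rela. Xist had 956 fragments in wild-type and 2 in p65-null cells. The Y-chromosome genes Ddx3y and Kdm5d had 0 and 106.5, and 0 and 207. On chromosome 4, Mtap had 3407 and 1, and the nearby Cdkn2a 1693.5 and 3. Genotype, sex, embryo of origin and clonal history therefore cannot be told apart. All 9 fibroblast markers looked up were measured, with summed levels of 12010 CPM in wild-type and 24687 CPM in p65-null cells, although Thy1 had a log2 ratio of -3.10. Of 6 epithelial markers 0 were measured, with summed levels of 0.118 and 2.81 CPM and Epcam, Cdh1, Krt18 and Krt5 at 0 in the wild-type library. Of 5 endothelial markers, Kdr alone was measured, with sums of 3.44 and 2.18 CPM, Tek at 0 in the wild-type and Cdh5 and Vwf at 0 in the p65-null library. Of 6 haematopoietic and macrophage markers 2 were measured, with sums of 3.68 and 5.61 CPM and Ptprc at 0 in the p65-null library. Of 5 neural markers 3 were measured, with sums of 87.1 and 45.3 CPM carried by Tubb3 (76.4 and 26.4 CPM). Sox2 went the other way, with 2 fragments in wild-type and 143.5 in p65-null cells, a log2 ratio of 6.65 (4.77 to 9.71). The part of these differences in the results below was not tested.

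The 10 genes spanned almost the whole range of expression, and most kept their order among themselves. On a scale per transcript length (FPKM, CPM divided by the length in kilobases of the matched GENCODE transcript), Sod1, Gpx1 and Gpx4 lay far above the rest in both libraries. In the wild-type library Sod1 was at 482 FPKM, Gpx1 at 334 and Gpx4 at 249. Hmox1 followed at 39.1, Cat at 20.8, Sod2 at 17.9, Gclc at 11.0, Gclm at 7.31, Sod3 at 3.78 and Gpx3 at 0.0592 FPKM, against a median of 9.27 FPKM over the measured genes. In the p65-null library the order was the same except that Gpx4, at 431 FPKM, stood above Gpx1, at 294. The exact Poisson intervals of neighbours in this order did not overlap in either library. The length counted by the authors may differ from the matched transcript, which would move a gene's place but not its ratio between the libraries.

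**Figure D1:**
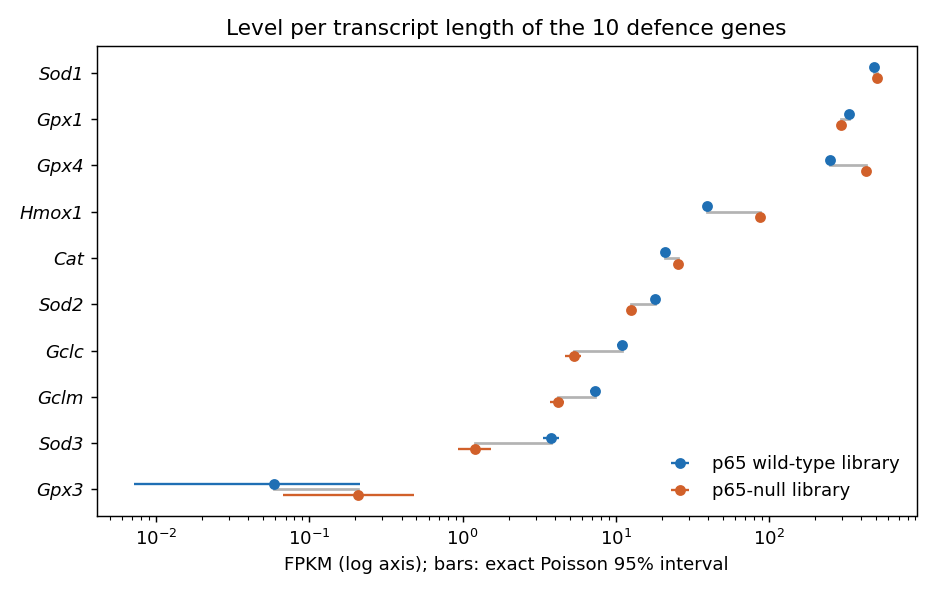
Level per transcript length (FPKM, log axis) of the 10 genes in the p65 wild-type (blue) and p65-null (orange) library, 1 library each; bars are exact Poisson 95% intervals. Sod1, Gpx1 and Gpx4 lie between 249 and 509 FPKM, Gpx3 lies under 0.5 FPKM, and Gpx1 and Gpx4 stand in opposite order in the libraries.

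Of the 9 measured members, Sod3 and Gclc lay 2-fold or more below the wild-type level (2 genes) and Hmox1 lay 2-fold or more above it (1 gene). Over all measured genes 13.7% lay that far below, 12.2% that far above and 25.9% that far apart either way, so these counts, out of so few genes, are near the background. At 1.5-fold, 3 members lay below (25.0% of all genes) and 2 above (22.2%). Scaling to ribosomal protein genes, which shifts every ratio down, turned the 1475 higher and 1667 lower genes of the whole table into 900 and 3010. The median log2 ratio of the members was -0.19, against -0.03 for all measured genes. Their ratios ran from 1.65 log2 units below 0 to 1.16 above, with 5 members below and 4 above, so the set lay on both sides of 0.

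**Figure D2:**
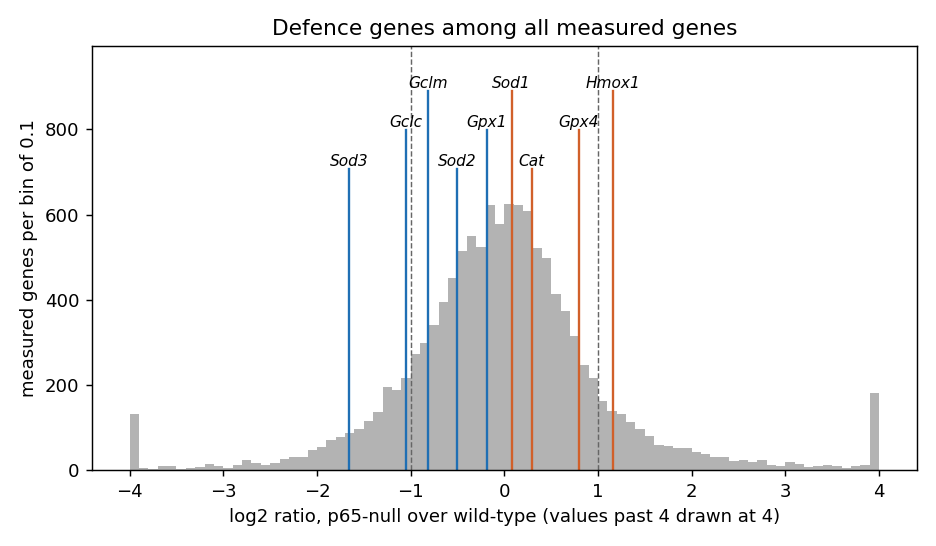
Distribution of the log2 ratio (p65-null over wild-type) of the 12135 measured genes in bins of 0.1, with the 9 measured members drawn as vertical lines (blue below 0, orange above) and dashed lines at 2-fold. The members spread across the bulk of the distribution, and 3 of them lie past 2-fold.

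The ratio of a gene followed the GC content of its transcript across the 11990 measured genes with a matched sequence (Spearman 0.44, genes not being independent replicates). It also fell with transcript length, less closely (Spearman -0.22). GC content ran from 42.1% for Gclm and 42.2% for Sod2 to 57.2% for Gpx1 and 58.8% for Gpx4. Gclm and Sod2 were also long, at 5589 and 5861 bases against a median of 2971. A correction for GC content and length is therefore given beside each member. With it 1 member, Sod3, lay 2-fold or more below (10.2% of all genes) and 0 lay 2-fold or more above (10.3% of all genes). The source of the relations to GC content and length was not tested.

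**Figure D3:**
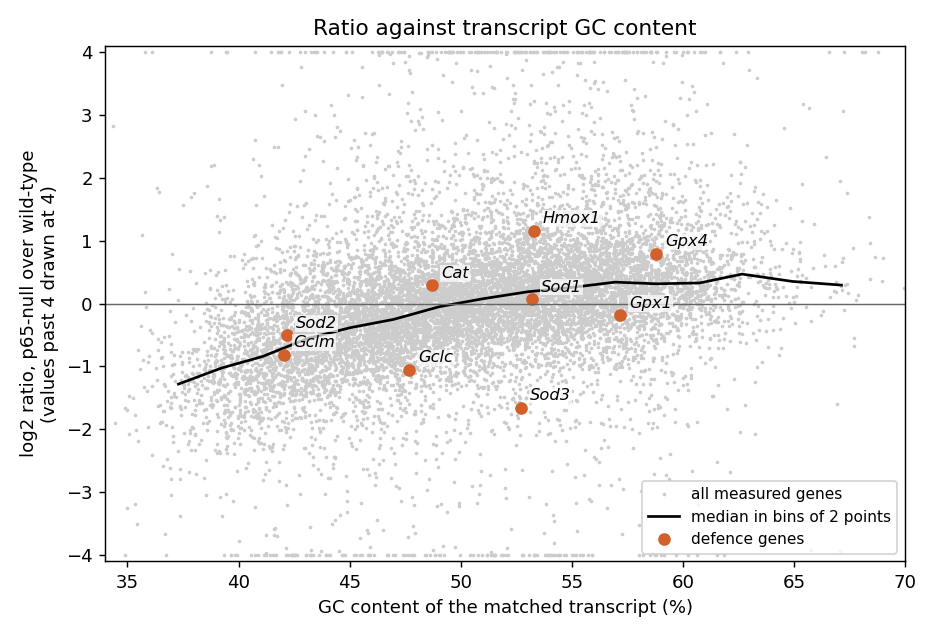
Log2 ratio (p65-null over wild-type) against GC content of the matched transcript for all measured genes (grey), their median in bins of 2 percentage points (black line) and the 9 measured members (orange). Sod2 and Gclm lie close to the median line at low GC content, whereas Sod3, Gclc and Gpx1 lie below it and Hmox1 above it.

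The superoxide dismutases differed from each other: the extracellular enzyme gene Sod3 was lower in the p65-null library, the cytosolic Sod1 was nearly level, and the mitochondrial Sod2 lay between them as measured but above both after the correction. Sod3 (NM_011435, chromosome 5, 52363804 to 52369738, 2 exons) encodes the secreted copper and zinc enzyme that binds the matrix. It had 299.5 fragments in wild-type and 68 in p65-null cells, or 14.1 and 4.49 CPM. That is 3.15-fold lower (2.41 to 4.16), a log2 ratio of -1.65 (-2.06 to -1.27), and 5.50% of measured genes had a lower ratio. Sod3 was the member whose whole interval lay past 2-fold on the low side, and it stayed lower after the GC and length correction, at -1.90.

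Sod1 (NM_011434, chromosome 16, 90220762 to 90226333, 5 exons) encodes the abundant cytosolic copper and zinc enzyme. It had 309 CPM in wild-type and 326 CPM in p65-null cells, from 6550.5 and 4938 fragments. The log2 ratio was 0.08 (0.02 to 0.13). After the correction it was -0.30, and -0.33 under scaling to ribosomal protein genes. Its direction thus rests on the scaling. Ccs, the chaperone that loads copper into this enzyme, was 2.54-fold higher (2.25 to 2.87), at 19.8 and 50.4 CPM, or 0.79 on the log2 scale after the correction. The ratio of Sod1 to Ccs fragments, which is free of the scaling between libraries but not of GC content, was 15.6 in wild-type and 6.47 in p65-null cells, a log2 difference of -1.27 (-1.45 to -1.09), or -1.10 after the correction.

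Sod2 (NM_013671, chromosome 17, 13007839 to 13018119, 5 exons) encodes the manganese enzyme of the mitochondrial matrix. It had 105 CPM in wild-type and 74.0 CPM in p65-null cells, from 2227.5 and 1120.5 fragments. This was 1.42-fold lower (1.32 to 1.53), a log2 ratio of -0.51 (-0.61 to -0.40), which turned to 0.26 after the correction. 27.9% of measured genes had a lower ratio than Sod2. The level of Sod2 in p65-null cells was 70.4% of that in wild-type cells as measured.

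Relative to the other dismutases Sod3 was lower in the p65-null library, whereas the order of Sod1 and Sod2 turned with the correction. Fragments of Sod1 over Sod3 went from 21.9 to 72.6, a log2 difference of 1.73 (1.35 to 2.14), or 1.60 after the correction. Sod2 over Sod3 went from 7.44 to 16.5, a difference of 1.15 (0.75 to 1.56), or 2.2 after the correction. Sod1 over Sod2 differed by 0.58 (0.47 to 0.70) as measured and by -0.56 after the correction. Of the summed FPKM of the 3 genes, Sod1 took 95.7% in wild-type and 97.4% in p65-null cells, Sod2 3.56% and 2.42%, and Sod3 0.750% and 0.230%. With the corrected ratios the p65-null shares were 94.6% for Sod1, 5.20% for Sod2 and 0.245% for Sod3, so the shares of Sod1 and Sod2 moved the other way from wild-type. The uncorrected sum was 504 and 522 FPKM.

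The bases before the start sites of Sod2 and Sod1 are shown because NF-kB binds kB sites: Sod2 is a known target of it, and Sod1 is the relative whose ratio lay nearest 0. RefSeq (GRCm38.p6) windows from 250 bases before to 50 after a start site were found for 7 members, 10 windows in all, and the 250 bases before the start are printed 5′ to 3′ on the + strand. Capitals mark matches to the kB consensus, or to TGACNNNGC, the core of the antioxidant response element to which NRF2 binds, searched on both strands.
Sod2, chr17:13007589-13007838: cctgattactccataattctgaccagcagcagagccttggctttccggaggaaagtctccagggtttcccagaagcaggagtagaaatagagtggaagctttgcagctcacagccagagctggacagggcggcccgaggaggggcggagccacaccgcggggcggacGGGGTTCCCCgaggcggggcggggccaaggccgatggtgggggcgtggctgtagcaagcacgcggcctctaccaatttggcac
Sod1, chr16:90220512-90220761: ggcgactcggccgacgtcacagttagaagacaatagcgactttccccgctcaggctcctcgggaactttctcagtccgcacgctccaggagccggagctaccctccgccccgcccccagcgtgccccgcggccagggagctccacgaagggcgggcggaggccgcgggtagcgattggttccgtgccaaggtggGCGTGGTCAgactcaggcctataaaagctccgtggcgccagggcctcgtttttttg
The Sod2 window holds a kB match, GGGGTTCCCC, at position -83 from the start site, where it reads as a match on both strands. The consensus occurred in 4.51% of the 32851 windows of the same length, and in none of the other 9 windows of the members. The Sod1 window holds the antioxidant core at -56, on the - strand, and 12.4% of all windows hold that core. AP-1 sites, TGANTCA, were found in none of the 10 windows of the members, against 7.81% of all windows. No match of one motif overlapped a match of another. A match in a window is a description of its letters and says nothing of binding.

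Hydrogen peroxide is removed by catalase in peroxisomes and by glutathione peroxidases elsewhere. Within this group Gpx4 was higher and Gpx1 slightly lower in the p65-null library as measured. With the correction Gpx4 was only slightly higher, at 0.22, and Gpx1 more clearly lower, at -0.75. Cat (NM_009804, chromosome 2, 103453904 to 103485153, 13 exons) encodes catalase. It had 54.3 CPM in wild-type and 66.5 CPM in p65-null cells, from 1151.5 and 1008 fragments. The log2 ratio was 0.29 (0.17 to 0.42), 0.25 after the correction and -0.11 under scaling to ribosomal protein genes.

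Gpx1 (NM_008160, chromosome 9, 108339080 to 108340342, 2 exons) encodes the main cytosolic glutathione peroxidase. It had 358 CPM in wild-type and 315 CPM in p65-null cells, from 7589 and 4768.5 fragments. The log2 ratio was -0.19 (-0.24 to -0.13), or -0.75 after the correction. Gpx4 (NM_008162, chromosome 10, 80047166 to 80056439, 7 exons) encodes the peroxidase that reduces lipid peroxides within membranes and guards against ferroptosis. It had 239 CPM in wild-type and 414 CPM in p65-null cells, from 5057 and 6264.5 fragments. Gpx4 was 1.73-fold higher (1.67 to 1.80), a log2 ratio of 0.79 (0.74 to 0.85), or 0.22 after the correction.

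Both transcripts are GC-rich and of similar length, at 57.2% and 1072 bases for Gpx1 and 58.8% and 959 bases for Gpx4. Fragments of Gpx1 over Gpx4 were 1.5 in wild-type and 0.761 in p65-null cells, a log2 difference of -0.98 (-1.05 to -0.90), or -0.97 after the correction. Gpx1 was thus the more abundant in 1 library and Gpx4 in the other. Catalase over Gpx1 went from 0.152 to 0.211, a log2 difference of 0.48 (0.34 to 0.61), or 1.00 after the correction.

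Gpx3 (NM_008161, chromosome 11, 54902854 to 54910387, 5 exons) encodes the secreted plasma peroxidase. It had 2 fragments in wild-type and 5 in p65-null cells, or 0.0944 and 0.330 CPM. The log2 ratio of 1.81 had an interval from -0.80 to 5.20, so a difference was not detectable at this depth. Of the relatives outside the set, Gpx7, a peroxidase of the endoplasmic reticulum, was 4.0-fold higher (3.10 to 5.21), at 3.87 and 15.5 CPM. Gpx8, also of the endoplasmic reticulum, was 1.57-fold lower (1.46 to 1.70), at 98.1 and 62.4 CPM. Fragments of Gpx8 over Gpx7 were 25.4 in wild-type and 4.03 in p65-null cells, a log2 difference of -2.65 (-3.05 to -2.27). Their transcripts differ in GC content, at 44.3% for Gpx8 and 55.5% for Gpx7. After the correction Gpx8 was at -0.37, Gpx7 at 1.51 and the pair at -1.87. Gpx2, Gpx5 and Gpx6 were not analysed here. Of the summed FPKM of the 5 peroxidases found, Gpx1 took 49.1% in wild-type and 36.8% in p65-null cells, Gpx4 36.6% and 54.1%, and Gpx8 13.8% and 7.51%. With the corrected ratios, without Gpx3, the p65-null shares were 34.9% for Gpx1, 50.8% for Gpx4 and 12.8% for Gpx8.

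**Figure D4:**
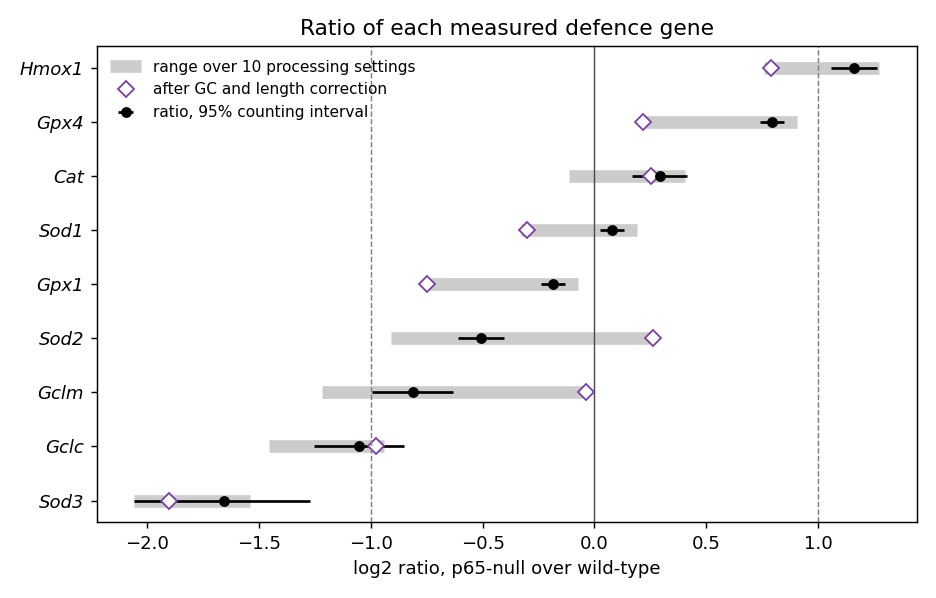
Log2 ratio (p65-null over wild-type) of the 9 measured members (black, with the 95% counting interval), the value after the GC and length correction (open diamond) and the range over 10 processing settings (grey bar); dashed lines mark 2-fold. Sod3 lies past 2-fold under every setting drawn, whereas Sod2 and Sod1 cross 0 with the correction.

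Both subunits of glutamate-cysteine ligase were lower in the p65-null library as measured, Gclc with the correction as well and Gclm hardly. Gclc (NM_010295, chromosome 9, 77754535 to 77794489, 16 exons) encodes the catalytic subunit, which joins cysteine to glutamate. It had 37.6 CPM in wild-type and 18.1 CPM in p65-null cells, from 796.5 and 274.5 fragments. Gclc was 2.07-fold lower (1.81 to 2.39), a log2 ratio of -1.05 (-1.26 to -0.85), so its interval reached within 2-fold. It was at -0.98 after the correction and at -0.94 under upper quartile scaling.

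Gclm (NM_008129, chromosome 3, 122245487 to 122267215, 7 exons) encodes the modifier subunit, which raises the affinity of the enzyme for its substrate. It had 40.8 CPM in wild-type and 23.3 CPM in p65-null cells, from 865.5 and 352.5 fragments. Gclm was 1.75-fold lower (1.55 to 1.99), a log2 ratio of -0.81 (-0.99 to -0.63), but only -0.04 after the correction. Fragments of Gclc over Gclm went from 0.920 to 0.779, a log2 difference of -0.24 with an interval from -0.51 to 0.03 that includes 0. After the correction the pair was at -0.94, so whether the subunits differed in balance rests on that correction. The bases before the Gclm start site are shown because the gene is a textbook target of NRF2, with TGACNNNGC in capitals, here once, on the - strand, at -134 from the start site of the RefSeq window. That site lies 70 bases inside the annotated gene, and those bases are not printed.
Gclm, chr3:122245307-122245486: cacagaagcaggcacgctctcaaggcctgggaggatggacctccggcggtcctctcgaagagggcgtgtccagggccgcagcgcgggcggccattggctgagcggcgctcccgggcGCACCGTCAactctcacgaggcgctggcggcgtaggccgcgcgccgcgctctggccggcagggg

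The genes on either side of this step did not all share the direction: as measured, Gss was higher, Gsr near level and Slc7a11 lower. Gss, which completes glutathione, had a log2 ratio of 0.45 (0.29 to 0.61), and -0.05 after the correction. Fragments of Gclc over Gss went from 1.16 to 0.409, a log2 difference of -1.50 (-1.76 to -1.25), or -0.92 after the correction. Gsr, which returns oxidised glutathione to its reduced form, was at 0.08 (-0.01 to 0.18), and Slc7a11, the cystine transporter, at -0.49 (-0.86 to -0.12), or 0.50 after the correction. Of 16 measured genes of glutathione supply and recycling, 3 lay 2-fold or more above (12.2% of all genes) and 1 as far below (13.7%). The list's median log2 ratio was 0.06. The higher ones were the glutathione-degrading Chac1 at 2.84-fold (2.34 to 3.46), Ggt7 at 3.25-fold (2.38 to 4.49) and the oxoprolinase gene Oplah at 2.49-fold (1.60 to 3.92). The lower one was Ggct, whose product cleaves gamma-glutamyl amino acids, at 2.81-fold (1.87 to 4.35) from 118 and 30 fragments. After the correction 1 gene, Ggt7, stayed at least 2-fold higher and 1, Ggct, lower.

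Hmox1 (NM_010442, chromosome 8, 75093618 to 75100593, 5 exons) encodes the inducible haem oxygenase and was the member with the highest ratio among those measured. It had 61.3 CPM in wild-type and 137 CPM in p65-null cells, from 1300 and 2077 fragments. Hmox1 was 2.24-fold higher (2.08 to 2.4), a log2 ratio of 1.16 (1.06 to 1.26), and 90.0% of measured genes had a lower one. It was at 0.79 after the correction and at 0.76 under scaling to ribosomal protein genes, a scaling that moved the median of all genes to -0.44. Hmox2, the constitutive form, was at 0.12 (-0.01 to 0.25), and Hmox1 over Hmox2 went from 1.12 to 2.30, a log2 difference of 1.04 (0.88 to 1.2), or 0.86 after the correction.

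Of the biliverdin reductase genes, Blvra had a log2 ratio of 0.60 (0.42 to 0.78), or 0.41 after the correction. Blvrb was 2.19-fold higher (1.88 to 2.55). Hmox1 over Blvrb differed by 0.03 (-0.21 to 0.27), or 0.22 after the correction. Of 14 measured genes of haem synthesis and breakdown, 2 lay 2-fold or more above (12.2% of all genes) and 2 as far below (13.7%). The median of this list was 0.21. Besides Blvrb, the higher one was Uros at 2.67-fold (2.0 to 3.58). The lower ones were Por, the reductase that passes electrons to haem oxygenase and cytochromes P450, at 3.04-fold (2.83 to 3.27), and the haem exporter Flvcr1 at 2.37-fold (1.94 to 2.90). After the correction, Por stood at -2.10, Flvcr1 at -0.93, Blvrb at 0.57 and Uros at 1.2.

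Genes of NRF2 and its partners did not share a direction with each other. Nfe2l2, which encodes NRF2, had a log2 ratio of 0.33 (0.22 to 0.45), or 0.43 after the correction. Keap1 was at 0.36 (0.26 to 0.47), or -0.13 after the correction. Bach1, a repressor of Hmox1, was at -0.39 (-0.57 to -0.22), or -0.12 after the correction. The median of the 11 measured members of that list was -0.25. Of them 0 lay 2-fold or more above (12.2% of all genes) and 2 as far below (13.7%). Those were the small Maf gene Maff at 3.55-fold (3.06 to 4.14) and Bach2 at 3.28-fold (2.11 to 5.31). After the correction Mafk joined them, at -1.40 against -1.0.

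Among 18 measured NRF2 target genes 3 lay 2-fold or more above (12.2% of all genes) and 0 as far below (13.7%). The median of this list was 0.16. The glutathione transferase genes Gstm1 and Gsta4 were 4.97-fold (4.5 to 5.50) and 4.8-fold (3.48 to 6.72) higher, and Blvrb was the third. After the correction their log2 ratios were 1.92 for Gstm1, 2.11 for Gsta4 and 0.57 for Blvrb. Nqo1, a quinone reductase often read as a marker of NRF2, was at 0.67 (0.55 to 0.79), or 0.75 after the correction. Srxn1, which repairs peroxiredoxins, was at 0.35 (0.24 to 0.47) and Txnrd1, a thioredoxin reductase, at -0.56 (-0.60 to -0.51), or 0.06 and -0.87 after the correction. The target genes in the set itself thus stood on opposite sides as measured, Hmox1 higher and Gclc and Gclm lower. With the correction Hmox1 was at 0.79 and Gclc at -0.98, but Gclm was near level, at -0.04. The median of the list was 0.01 after the correction.

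The peroxiredoxin and thioredoxin genes, which form the other peroxide-removing system, lay mostly within 2-fold. Of 16 measured genes 1, Sesn2, lay 2-fold or more above, at 3.95-fold (3.41 to 4.59), and 0 lay as far below. Over all measured genes 12.2% lay that far above and 13.7% that far below. The median of this list was 0.08. Sesn2 encodes a stress-induced protein that p53 and ATF4 are known to drive. The peroxiredoxin genes Prdx1 and Prdx2 parted as measured, with log2 ratios of -0.14 (-0.18 to -0.10) and 0.72 (0.68 to 0.76). After the correction they lay close together, at 0.42 and 0.52. Prdx6 was at -0.23 (-0.29 to -0.17), or -0.59 after the correction.

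**Figure D5:**
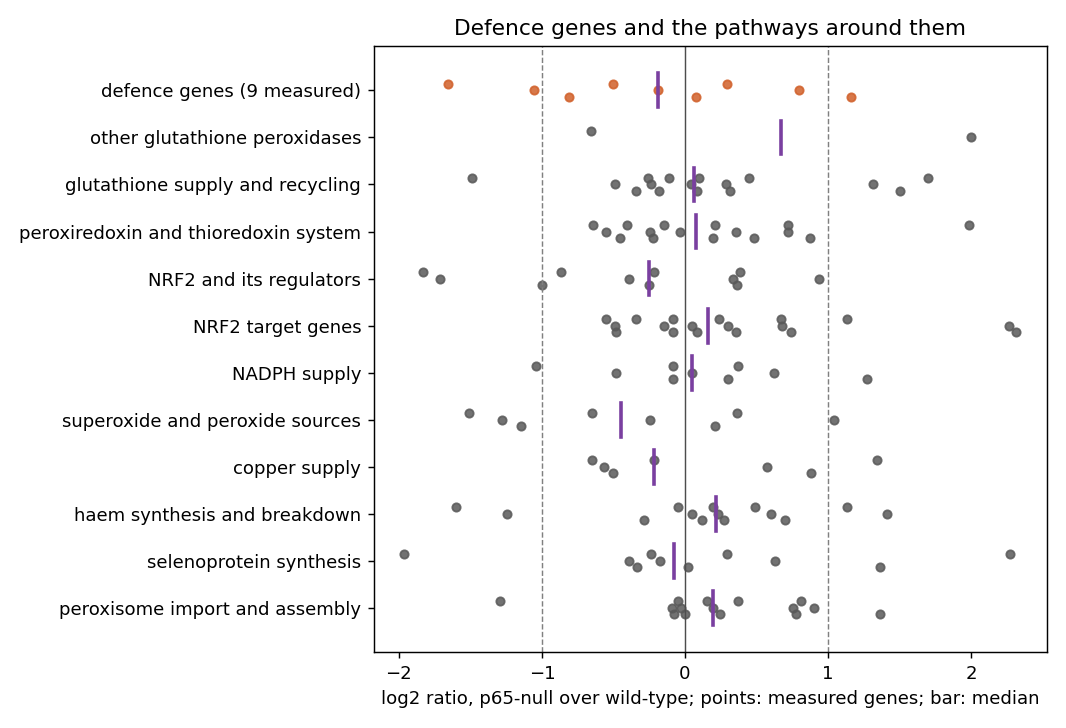
Log2 ratio (p65-null over wild-type) of each measured gene (points) in the defence set (orange, 9 genes) and in 11 lists of genes around it (grey), with the median of each list (purple bar) and dashed lines at 2-fold. All list medians lie within 2-fold, and single genes such as Gstm1, Selenop and Sesn2 lie past it.

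Sources of superoxide and peroxide were the list with the lowest median as measured, -0.45 over 8 measured genes. Of these, 3 lay 2-fold or more below (13.7% of all genes) and 1 as far above (12.2%). Cyba, the p22phox subunit shared by NADPH oxidases, was 2.85-fold lower (2.52 to 3.24), at 59.3 and 20.8 CPM. The xanthine dehydrogenase gene Xdh was 2.21-fold lower (1.70 to 2.91) and the oxidase gene Nox1 2.42-fold lower (1.23 to 5.16), from 39 and 11.5 fragments. The aldehyde oxidase gene Aox1 was 2.06-fold higher (1.29 to 3.30), from 33 and 48.5 fragments. Nox4, the oxidase typical of fibroblasts, was at -0.65 (-1.19 to -0.13), or 0.20 after the correction. With the correction the median was -0.30, close to the -0.29 of the NADPH-supplying genes. Cyba and Xdh (2 genes) then lay 2-fold or more below (10.2% of all genes), Aox1 and Maoa (2 genes) above (10.3%).

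Genes that supply reducing power and metal to these enzymes also lay on both sides of the wild-type level. Of 9 measured NADPH-supplying genes 1 lay 2-fold or more above (12.2% of all genes) and 1 as far below (13.7%). Their median was 0.05, or -0.29 after the correction. Pgls of the pentose phosphate pathway was 2.42-fold higher (2.25 to 2.59), or 0.60 after the correction. The mitochondrial transhydrogenase gene Nnt was 2.06-fold lower (1.90 to 2.23), a log2 ratio of -1.04, or -1.10 after the correction. Of 7 measured genes of copper supply, Ccs alone lay 2-fold or more above (12.2% of all genes) and 0 as far below (13.7%). The median of these genes was -0.21. Gpx1, Gpx3 and Gpx4 carry selenocysteine. Of 10 measured genes of selenium supply and selenoprotein synthesis 2 lay 2-fold or more above and 1 as far below, against the same shares of all genes. Their median was -0.08. Selenop, which transports selenium, was 4.83-fold higher (3.70 to 6.38), the selenocysteine lyase gene Scly 2.57-fold higher (1.92 to 3.46), and Lrp8, a receptor for selenoprotein P, 3.89-fold lower (3.36 to 4.53). After the correction Selenop was at 2.63, Scly at 0.84 and Lrp8 at -2.45.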

How the data were processed

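RNA of 1 p65 wild-type and 1 p65-null fibroblast culture was sequenced. Tools listed in the submitters' processing notes, without roles, are STAR 2.4, bcl2fastq 2.16, edgeR and HOMER, with build mm10. For the counting rule and strand, nothing is given in the sources used here. The values deposited by the authors are a scaled signal: both columns sum to about the same total (18117934 and 18117930). Each value checked was a whole multiple of 1 step per column (0.436 and 0.587; 100% of 15415 and 15255 values, tolerance 0.0055). Zeros and the highest values were not part of this check. Even multiples prevailed (72.8% and 75.7%), so 2 steps were taken as 1 fragment, and fragment counts need not be whole. No count test was run, since neither genotype had a second library.

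Symbols and GRCm38 coordinates came from RefSeq (16743 transcripts) or GENCODE M21 (83), and 55 were unmatched (3.13% and 3.84% of fragments). Sequences are from RefSeq; Sod3, Gclc and Hmox1 had no window. In GENCODE no member's exons overlapped another gene. Library sizes were scaled with edgeR 4.0.16 (R 4.3.3) TMM factors, 1.02 and 0.981. Intervals are exact Clopper-Pearson (95%); those of gene pairs are conditional exact intervals of the odds ratio, on fragments rounded to whole numbers. The correction is loess (span 0.3) on GC content, then log2 length, with the overall median added back, for 11990 measured genes (98.8%). On simulated Poisson counts for this comparison (12135 genes), the interval covered the simulated ratio in 95.2% of unchanged, 95% of 2-fold and 97% of 4-fold genes. The simulation held counting error only, with no GC relation and no difference between cultures, so it says nothing of those.

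The text names all members, Rela, 14 genes fixed by name, and up to 3 genes per list and direction past 2-fold. Genes named beyond that, and the gene pairs, were chosen after their values were seen. The members and lists were chosen with earlier results of these data known. The alternatives were other scalings (DESeq2 1.42.0, total counts, upper quartile, ribosomal protein genes), expression minima, a prior count, thinning, omission of the 10 most abundant genes, the GC and length correction, and other call rules. The correction of gene pairs (difference of the corrected ratios) and of family shares was added after the data were seen.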

Additional observations from a re-analysis of the deposited data

How the results depend on the processing

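No paired analysis was possible because each genotype had 1 library. Sod3, Gclc, Gclm, Gpx1, Gpx4 and Hmox1 kept their direction under all 10 settings that give a ratio. The changed expression minima leave a ratio as it is, so those settings could not turn it. In the order named, the ranges were -2.06 to -1.54, -1.46 to -0.94, -1.22 to -0.04, -0.75 to -0.07, 0.22 to 0.91 and 0.76 to 1.27. With the GC and length correction Gclm, at -0.0354, lay above the median of all measured genes, -0.0925. Sod2 turned with the GC and length correction, Cat with scaling to ribosomal protein genes, and Sod1 with both. The cause was not tested. The count of members at least 2-fold higher (1) was 0 with the GC and length correction, 0 with ribosomal protein scaling, 2 at 1.5-fold and 2 with no expression minimum, which admits Gpx3. The count at least 2-fold lower (2) was 1 with the correction, 1 with upper quartile factors, 1 when the whole interval had to pass 2-fold, 3 with ribosomal protein scaling, which adds Gclm at -1.22, and 3 at 1.5-fold. The members' median (-0.19) was -0.0354 with the correction, -0.0543 with no minimum, -0.59 with ribosomal protein scaling, -0.24 with total counts and -0.0725 with upper quartile factors. The median of all measured genes was -0.44 with ribosomal protein scaling and 0.0877 with upper quartile factors, since a scaling moves every gene by the same amount. Over all genes, those at least 2-fold higher (1475) and lower (1667) numbered 900 and 3010 with ribosomal protein scaling, 3157 and 2651 with no minimum, 2698 and 3032 at 1.5-fold, and 965 and 1104 by the whole interval; 924 were higher at a minimum of 5 CPM. With the correction, 1229 were higher and 1227 lower. Of the 12 gene pairs, to which the correction was applied after seeing the data, Sod1 over Sod2 turned from 0.58 to -0.56. Gclc over Gclm, Sod2 over Sod3, Hmox1 over Hmox2 and Gpx8 over Gpx7 kept their direction but left their counting interval. So did Gclc over Gss, Cat over Gpx1 and Gsr over Gpx1, the last going from 0.27 to 0.71. The remaining pairs stayed within their intervals. Leaving out a replicate was not possible. Depth limits Gpx3, and genes of few fragments such as Nox1, Aox1 and Pex11a.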

Other observations

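Catalase works in peroxisomes, and the genes of peroxisome import and assembly lay close to level between the libraries. Of 15 measured genes 1, Pex10, lay 2-fold or more above, at 2.57-fold (1.91 to 3.48). Pex11a (1 gene) lay as far below, at 2.44-fold (1.16 to 5.68) from 32.5 and 9.5 fragments. Over all measured genes 12.2% lay that far above and 13.7% that far below. The median log2 ratio was 0.20, and 0.38 after the GC and length correction, when Pex10 stood at 0.84. Pex5, the receptor that carries catalase and most matrix proteins into the organelle, was at -0.08 (-0.18 to 0.02), or -0.47 after the correction, and Pex6, a subunit of the export complex that recycles it, at 0.90 (0.75 to 1.05), or 0.36 after the correction.

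Ferritin, which stores the iron that haem breakdown sets free, was abundant in both libraries. The light chain gene Ftl1 had 1542 CPM in wild-type and 2472 CPM in p65-null cells, with a log2 ratio of 0.68 (0.66 to 0.70), or 0.11 after the correction. The heavy chain gene Fth1 had 374 and 442 CPM, a log2 ratio of 0.24 (0.19 to 0.29), or -0.16 after the correction. Ferritin genes have near-identical pseudogenes, and the rule for reads that fit several of them was not stated.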
